A study of Danio rerio with 4 samples.

Results

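Some chromatin regions that were called open in GFP-negative cells only did not lie alone but in rows, 5 or more on a short stretch of chromosome, each more than 1 kb from any region called in all 4 libraries. These rows, called clusters here, are described below with their 881 member regions, out of 694637 open regions in the whole series. The members were chosen by the peak calls themselves. Peaks of the 4 deposited lists were joined into a region where they overlapped, by 1 bp or more, and a region was GFP-negative-only when it held a peak of both GFP-negative lists and of neither GFP-positive list. Those within 1 kb of a region called in all 4 lists were set aside, the rest were chained along each chromosome wherever the gap to the next was at most 10 kb, and chains of at least 5 regions were kept.

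The libraries came from zebrafish embryos at the 4-somite stage that all carried the transgene Tg(krt4:GFP), in which the krt4 promoter drives GFP in the outermost layer of the embryo. GFP-carrying embryos of 2 independent incrosses were dissociated and sorted as separate batches, and each ATAC-seq library was made from 50000 cells. There were 2 libraries of GFP-positive cells, labelled periderm, and 2 of GFP-negative cells, which are all remaining cells and thus a mixture of neural, mesodermal, endodermal and deeper ectodermal types. Lists were made for each library alone and were numbered 1 and 2 in each group.

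Periderm is a flat epithelial sheet that seals the embryo and is later shed. ATAC-seq inserts sequencing adapters into accessible DNA with the enzyme Tn5, and short fragments come from nucleosome-free regions (NFRs) such as promoters, enhancers and insulators. Enhancers of a developmental gene often lie in groups, spread over introns and the gene-poor DNA around it, with each element open in its own cell types. In a mixed population such as the GFP-negative cells, a region open in a few cells only gives a weak peak. Fewer cells with an open region and less opening per cell cannot be told apart in these libraries.

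The lists held 336052 and 190059 peaks in the GFP-positive libraries, against 455867 and 333588 peaks in the GFP-negative libraries. The depth implied by the values was 24915270 and 29455700 tags in GFP-positive cells, against 42446898 and 37589490 tags in GFP-negative cells. Both GFP-negative libraries were thus deeper, and GFP-positive replicate 2 had by far the shortest list. As a check of the labels, each of 5 intervals that the study placed around the claudin gene cldne was called in both GFP-positive libraries, and 1 of them was also called in a GFP-negative library. The study had picked these intervals from the same libraries, so they are no independent check. Reads were not used here, so absence below means that the peak caller made no call, and signal under its limit can still have been there.

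GFP-negative-only regions made up 5.73% of all regions (39772 regions), and GFP-positive-only regions, defined in the reverse way, made up 1.57% (10906 regions). Of the 39772 regions, 9704 lay within 1 kb of a region called in all 4 lists, 17051 were left in chains of 1 and 12136 in chains of 2 to 4. The remaining 881, or 2.22% of the GFP-negative-only regions, formed 143 clusters. These counts follow from the rule. With 2 libraries in each group the smallest two-sided p of an unpaired exact test over libraries is 0.333. All values below are therefore a description and none was tested. The counts depended on single libraries, since a group left with 1 list is judged on that list alone. Without GFP-positive replicate 1 there were 6988 clustered regions in 1122 clusters, and without GFP-positive replicate 2 there were 942 in 164. Without GFP-negative replicate 1 there were 37089 in 5298 clusters, and without GFP-negative replicate 2 there were 130012 in 14200.

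The clusters were short rows of narrow regions. A cluster held between 5 and 16 members, with a median of 5. There were 79 clusters with exactly 5 members, 40 with 6 or 7, 15 with 8 or 9 and 9 with 10 to 16. From the first to the last member a cluster spanned between 2.51 and 50.5 kb, with a median of 18.7 kb, and all 143 together covered 2.83 Mb, or 0.208% of the 1357 Mb between the first and last peaks of the 25 chromosomes. The density of members ran from 0.148 to 1.99 per kb, with a median of 0.312 per kb. Members were thus a few kilobases apart in most clusters and much closer in the densest. Over the 738 gaps between neighbouring members the median gap was 2956.5 bp, and 185 gaps (25.1%) were under 1 kb. Gaps under 500 bp numbered 115 (15.6%) and gaps under 200 bp 53 (7.18%). Whether such close neighbours were parts of a single open site was not tested.

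Near the limits of the rule, the kept and the dropped regions had similar strength. Chains of 5, just inside, had median folds of 4.55 and 4.90 in GFP-negative replicates 1 and 2 and a median width of 136 bp. The 329 chains of 4, just outside, held 1316 regions with median folds of 4.55 and 4.49 and a median width of 127 bp. Gaps of 9 to 10 kb, close to the allowed limit, occurred 43 times within clusters, and 10 cluster edges had the next eligible region between 10 and 11 kb away. By distance to a region called in all 4 lists, 20 members lay between 1000 and 1100 bp away, and 560 GFP-negative-only regions between 900 and 1000 bp away were dropped. The 20 had also passed the chaining, which was not applied to the 560, so the counts are not alike.

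The value of a peak was read as its fold enrichment over the mean background of its own library. It moves in fixed steps, from which the pileup, the number of tags stacked at the strongest base of the peak, was read back. For this, 1 was taken to be added to both pileup and background, so the folds are below the plain ratio. Members were weak to middling peaks of their lists. In GFP-negative replicate 1 the members had folds of 2.65 at the lowest, 4.55 at the median and 15.9 at the highest, which are pileups of 6, 11 and 41 tags. In GFP-negative replicate 2 the folds were 2.86, 4.90 and 18.0, or 6, 11 and 43 tags. The lowest pileup called in either list was 6 tags, and 10 and 11 members sat at that floor in replicates 1 and 2. The median member stood at percentile 48.3 of all peaks of replicate 1 and at percentile 43.9 of replicate 2. Ranked only among regions called in both GFP-negative lists, as the members were, it stood lower, at percentiles 21.9 and 26.4. There were 198 members above percentile 50 in both lists, 320 at or below it in both, and 26 above percentile 75 in both. Strong peaks were rare, as only 2 members were above percentile 90 in both lists.

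**Figure D1:**
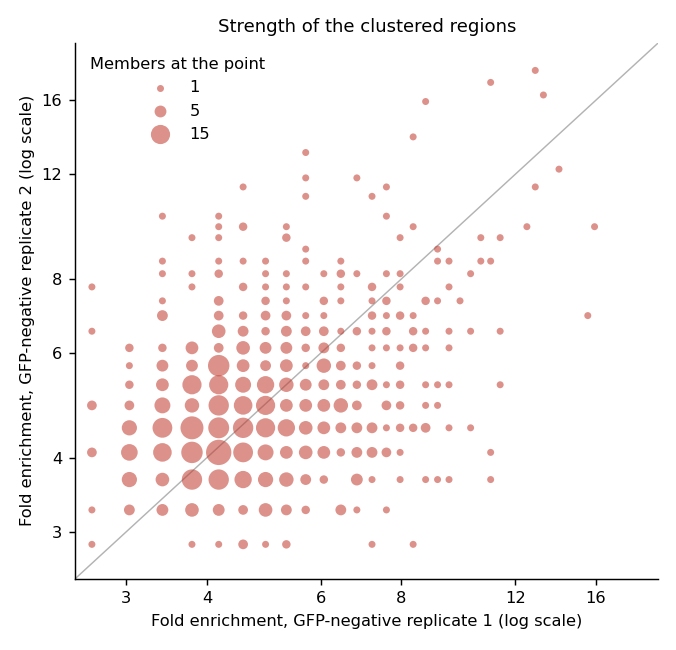
Fold enrichment of the 881 members in GFP-negative replicate 1 (horizontal axis) and in GFP-negative replicate 2 (vertical axis), both on log scales, with the size of a point giving the number of members there and the line marking equal folds. Most members lie between folds of 3 and 8 in both lists, and the cloud is wide around the line (Spearman rho 0.264 over 881 members).

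The strength of the members was loosely related between the GFP-negative libraries. That both called a peak at the same place was required by the rule. The centres of the peaks from the 2 lists were a median of 25.5 bp apart, and the peaks overlapped over a median of 92.5% of the shorter one. The median distance of the centres was 24.5 bp in chains of 1, 24 bp in regions beside shared sites and 18 bp in regions called in all 4 lists. The correlation of the folds between GFP-negative replicates was 0.264 over the 881 members (Spearman rho; Pearson r of log2 fold 0.34), against 0.254 over the chains of 1 and 0.854 over the 110754 regions called in all 4 lists. The members cover a narrow range of folds and share the 2 libraries, so these values describe the lists only. The pileup was higher in replicate 1 for 450 members, higher in replicate 2 for 342 and equal for 89. The merged members were between 53 and 525 bp wide, with a median of 132 bp. A single peak made up 873 members in replicate 1 and 859 in replicate 2.

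In strength and width, the members looked like other GFP-negative-only regions. Their median folds of 4.55 and 4.90 stood beside 4.55 and 4.49 for both the chains of 2 to 4 and the chains of 1, and beside 4.55 and 4.90 for the regions next to shared sites. In median width they had 132 bp, against 124 bp in chains of 2 to 4, 121 bp in chains of 1 and 124 bp beside shared sites. The share above percentile 50 in both lists was 22.5% of members, 20.3% of chains of 2 to 4, 20.2% of chains of 1 and 22.6% of regions beside shared sites. Regions called in all 4 lists stood far from all of these, with a median fold of 10.2 in both GFP-negative lists, a median width of 235 bp and 82.5% above percentile 50 in both. Part of this contrast follows from the definitions. A call in all 4 lists favours strong peaks, and the width of such a region joins peaks of all 4 lists, not of the GFP-negative lists alone.

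The cluster with the most members lay on chromosome 3 from 16740963 to 16782368 (danRer7, as are all positions here) and held 16 members over 41.4 kb. Its first member was its strongest, at 16740963 to 16741134, with folds of 15.9 in GFP-negative replicate 1 and 9.80 in replicate 2, which put it at percentiles 92.8 and 80.9. That region was wider than most at 172 bp and lay 1194 bp from a region called in all 4 lists. The second, at 16742752 to 16742882, was weak, with folds of 3.41 and 4.08, and was followed by a gap of 9102 bp, the longest in the cluster. The third, at 16751985 to 16752137, had folds of 6.45 and 4.49 and lay only 8 bp from a GFP-positive peak. The fourth, at 16757281 to 16757380, had folds of 4.93 and 4.08. These 4 members lay apart from the dense core of the cluster, which began with the fifth.

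The core held 8 members with gaps of 180 to 2081 bp between them. Its first, at 16759863 to 16760107, had folds of 6.83 and 6.53 and was the widest member of the cluster at 245 bp. It was followed at 16760908 to 16761035 by a member with folds of 4.17 and 4.08 and, 183 bp further on, by a narrow member of 62 bp at 16761219 to 16761280 with folds of 4.17 and 3.67. Strength then varied from member to member within the core. The member at 16762226 to 16762343 had folds of 7.58 and 6.12. The member at 16764425 to 16764507 had folds of 4.93 and 6.94. The strongest of the core, at 16764889 to 16765100, had folds of 7.96 and 7.76, or pileups of 20 and 18 tags. A weaker member at 16766127 to 16766211 had folds of 4.17 and 4.08, and its neighbour 180 bp away, at 16766392 to 16766618, had folds of 7.20 and 6.94. Regions called in all 4 lists were far from the core, between 5748 and 12277 bp from its members.

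The last 4 members of the chromosome 3 cluster were spread out again, apart from a gap of only 449 bp after the second of them. They lay at 16772142 to 16772294, with folds of 5.69 and 4.08, and at 16778077 to 16778260, with folds of 4.93 and 6.53. The weakest call of the cluster followed at 16778710 to 16778808, with a fold of 2.65 in replicate 1, the lowest that list holds, and of 4.90 in replicate 2. The cluster ended at 16782151 to 16782368 with folds of 6.83 and 4.49. Of all 57 regions within the 41.4 kb, 15 held a GFP-positive peak and 3 were called in all 4 lists. The GFP-positive lists had 14 and 9 peaks there, against 38 and 37 peaks in the GFP-negative lists. Here and in the clusters named below, the GFP-negative counts include the peaks of the members. The rule requires those in both GFP-negative lists and bars GFP-positive peaks from the members, so part of each such contrast is fixed by the rule.

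**Figure D2:**
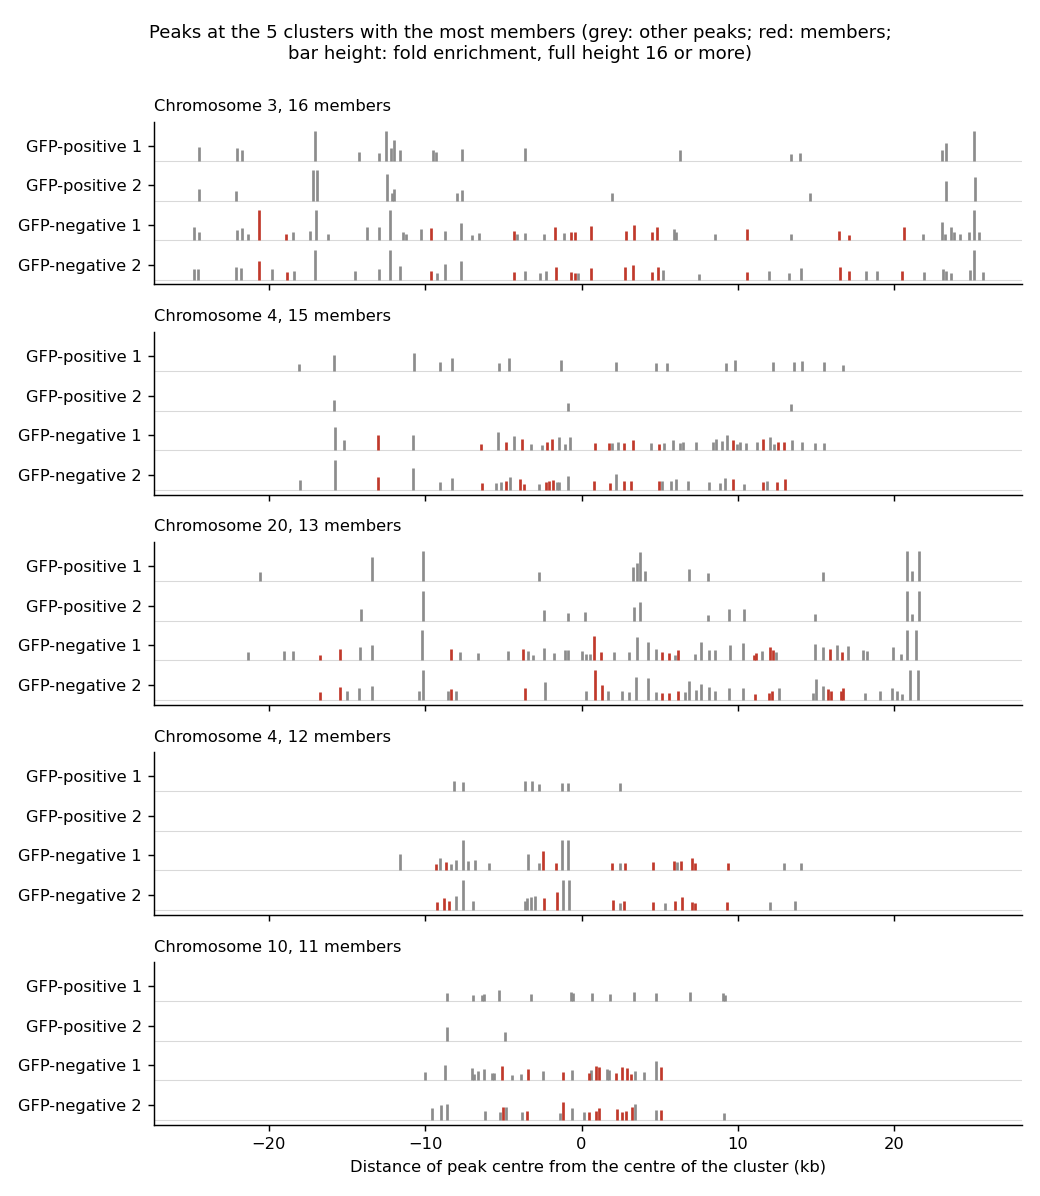
Peaks of the 4 libraries at the 5 clusters with the most members, by the distance of the peak centre from the centre of the cluster in kb, with members in red and all other peaks in grey, and bar height giving the fold enrichment up to 16. Red bars stand in both GFP-negative rows at matching places, grey bars of the GFP-positive libraries lie between them, and the cluster on chromosome 4 with 12 members has 8 peaks of GFP-positive replicate 1 and 0 of GFP-positive replicate 2 within its span.

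The next largest clusters differed in how many GFP-positive peaks they held. The cluster on chromosome 4 from 37954931 to 37981031 had 15 members over 26.1 kb and 53 regions in all, none called in all 4 lists. It held 12 and 1 peaks of the GFP-positive lists, against 41 and 37 peaks of the GFP-negative lists. Its members ranged in fold from 3.03 to 7.96 in GFP-negative replicate 1 and from 3.67 to 6.94 in replicate 2, with the highest of both at the first member, 37954931 to 37955047. That member stood apart from the others by a gap of 6468 bp. A second cluster on chromosome 4, from 48447865 to 48466641, had 12 members over 18.8 kb, with 8 and 0 peaks of the GFP-positive lists, against 25 and 24 peaks of the GFP-negative lists. Its strongest member, at 48454691 to 48454914, had folds of 10.2 and 6.53 and lay 99 bp from a GFP-positive peak. In this cluster the last 6 members lay between 1964 and 6762 bp from any GFP-positive peak.

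The cluster on chromosome 20 from 54298393 to 54331941, with 13 members over 33.5 kb, held the member that ranked highest of all. It held 10 and 11 peaks of the GFP-positive lists, against 47 and 43 peaks of the GFP-negative lists, and 3 of its 56 regions were called in all 4 lists. Its member at 54315856 to 54316081 had folds of 12.9 and 18.0 (percentiles 90.5 and 91.3), and no other of the 881 members had as high a value for the lower of its percentiles in the GFP-negative lists. The remaining members of that cluster had folds between 2.65 and 6.83 in replicate 1 and between 3.27 and 8.16 in replicate 2. On chromosome 10, the cluster from 2496526 to 2506871 packed 11 members into 10.3 kb. It held 7 and 1 peaks of the GFP-positive lists, against 21 and 18 peaks of the GFP-negative lists, the members' own included. Its strongest member, at 2496526 to 2496730, had folds of 7.58 and 6.94 and lay 22 bp from a GFP-positive peak. The median folds of this cluster, 6.45 and 5.31, were above the medians of all members in both libraries.

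The densest clusters were small and held few other peaks. On chromosome 15, 5 members lay between 46842414 and 46844921, a stretch of 2.51 kb with 1.99 members per kb. Their folds ran from 4.17 to 7.96 in GFP-negative replicate 1 and from 4.08 to 7.35 in replicate 2, and the strongest by rank, at 46843538 to 46843621, had folds of 4.55 and 4.90. On chromosome 9, 5 members between 31484128 and 31487377 made up all the regions of their 3.25 kb, at 1.54 members per kb. These were weak peaks, with folds from 3.03 to 4.93 in replicate 1 and from 3.27 to 4.90 in replicate 2, and the strongest by rank, at 31484128 to 31484349, had folds of 4.17 and 4.49. Neither stretch held a GFP-positive peak. The cluster on chromosome 18 from 30054307 to 30060401 held 8 members in 6.10 kb, at 1.31 per kb. It had 1 and 0 peaks of the GFP-positive lists, against 12 and 11 peaks of the GFP-negative lists, the members' own included. It combined density with strength, as its member at 30055726 to 30056006 had folds of 11.4 and 9.39, and it also held the widest of all members, 525 bp at 30059050 to 30059574 with folds of 5.69 and 6.12.

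The longest cluster lay close to the start of chromosome 20, from 363994 to 414447, with 10 members over 50.5 kb. It was loose, with a median gap of 5517 bp and 0.198 members per kb. The GFP-positive lists had 11 and 4 peaks there, against 25 and 24 peaks in the GFP-negative lists, and the 38 regions included 2 called in all 4 lists and 1 that was GFP-positive-only. Its strongest member, at 393474 to 393555, was 82 bp wide with folds of 7.58 and 10.2. Strong members also occurred in smaller clusters. The region on chromosome 7 at 66175813 to 66175868, only 56 bp wide, had folds of 13.3 and 16.3 and stood 32057 bp from the nearest region called in all 4 lists, in a cluster of 9. The region on chromosome 1 at 56281033 to 56281416, 384 bp wide, had folds of 11.0 and 17.1 in a cluster of 6, at 1264 bp from a region called in all 4 lists. No annotation of this genome build was used here, so genes at these positions are not named.

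The named clusters kept different numbers of members under other definitions. Cutting every list to its 190059 strongest peaks, the length of the shortest, left the 5 largest clusters, in the order given above, with 5, 5, 3, 5 and 6 of their members in clusters. The cluster on chromosome 18 had 4 of 8, and the longest cluster and the dense ones on chromosomes 9 and 15 had 0. Peaks tied at the lowest kept fold were kept in chromosome order, lowest number first, so this cut did not treat all chromosomes alike. When any GFP-positive peak within 500 bp barred a region, 13 of 16 members on chromosome 3 and 10 of 13 on chromosome 20 stayed clustered, whereas 0 of 15 in the larger cluster on chromosome 4, 0 of 11 on chromosome 10 and 0 of 8 on chromosome 18 did. At a distance of 2 kb to regions called in all 4 lists, the cluster of 13 on chromosome 20 kept 0. The one on chromosome 3 then kept 13 of 16, the longest 9 of 10 and the other named clusters all of theirs. At a fixed width of 200 bp the dense clusters on chromosomes 9 and 15 kept 0, and the others at least 6. At an overlap of 50% of the shorter peak the cluster on chromosome 9 and the longest kept 0, and the others at least 5.

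The stretches that held the clusters also held GFP-positive peaks. Peaks of GFP-positive cells lay in all but 4 of the 143 clusters, and 1156 of the 2393 regions between the members (48.3%) held one, against 52.3% of all regions in the series. The bases differ, as GFP-negative-only regions, which can hold none, made up 2.34% of the former and 5.73% of the latter. The nearest GFP-positive peak was a median of 822 bp from a member. It lay within 200 bp of 169 members (19.2%), within 1 kb of 497 (56.4%) and within 5 kb of 855 (97.0%). These shares were not computed for other regions. Over all chromosomes GFP-positive replicates 1 and 2 had 2.48 and 1.40 peaks per 10 kb, so a GFP-positive peak within a few kilobases is common anywhere. Most of this closeness came from the longer of the GFP-positive lists. Peaks of GFP-positive replicate 1 lay a median of 1032 bp from a member and within 1 kb of 427 members, and those of GFP-positive replicate 2 a median of 2439 bp away and within 1 kb of 161. The clusters with no peak of GFP-positive replicate 1 numbered 6, and those with no peak of GFP-positive replicate 2 numbered 21.

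Between the members lay regions of all calling patterns. Regions called in all 4 lists made up 8.73% of them (209 regions), against 15.9% of all regions, and 57 of the 143 clusters had none. This share is lowered by the rule, which keeps members 1 kb away from such regions. Those called in 3 lists made up 13.96% (334 regions), against 9.46% of all regions, and those called in 1 list of each group 9.36%, against 8.56%. Regions called in 1 GFP-negative list alone made up 49.4% (1181 regions), against 42.0% of all regions, and those called in 1 GFP-positive list alone 15.7%, against 16.7%. GFP-positive-only regions made up 0.585% (14 regions in 14 clusters), against 1.57% of all regions. The shares between the members leave the members out, whereas those of all regions count every GFP-negative-only region. To the nearest region called in all 4 lists a member had between 1001 bp and 65.7 kb, with a median of 4.95 kb.

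Peaks of every library were denser in and around the clusters than over the chromosomes as a whole. With the members left out, the spans held 3.65 and 1.63 peaks per 10 kb in GFP-positive replicates 1 and 2, which was 1.48 and 1.16 times the density over all chromosomes. In GFP-negative replicates 1 and 2 they held 5.39 and 4.05 peaks per 10 kb, or 1.60 and 1.65 times the overall density. The 50 kb on either side of a cluster were similarly dense. There the ratio to the overall density was 1.54 and 1.51 in the GFP-positive libraries, against 1.57 and 1.66 in the GFP-negative libraries. The clusters thus sat within stretches that were rich in peaks of both populations, and GFP-positive replicate 2 was the library with the least excess inside the spans. The rule itself keeps GFP-positive peaks off the members, and regions called in all 4 lists 1 kb away from them. How much of the lower excess in that library comes from the rule was not tested. The chaining also favours stretches that are dense in GFP-negative-only regions. Peak density around the chains of 1 and of 2 to 4 was not computed. The peaks inside the spans were not stronger than elsewhere. Their median folds were 5.10 and 5.62 in GFP-positive cells, against 5.61 and 6.09 over those whole lists, and 4.55 and 4.90 in GFP-negative cells with the members included, against 4.55 and 5.31 over those lists.

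**Figure D3:**
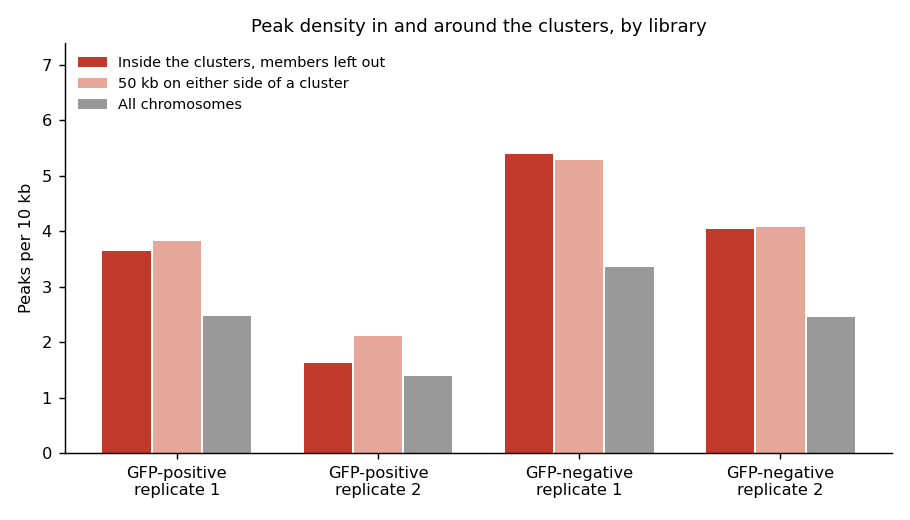
Peaks per 10 kb for each library inside the cluster spans with the members left out, in the 50 kb on either side, and over all chromosomes. The density in and beside the clusters is above that of the chromosomes in all 4 libraries, from 1.16 times inside the spans in GFP-positive replicate 2 to 1.66 times beside them in GFP-negative replicate 2.

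In 4 clusters of 5 members each, singled out after their values were seen, no GFP-positive peak lay in the span. Besides the dense ones on chromosomes 9 and 15 given above, these were at 3632255 to 3641113 and at 24113479 to 24122164, both on chromosome 9. They spanned 8.86 and 8.69 kb and held 6 and 7 regions, so hardly anything beside the members was called there. The median folds were 4.93 and 4.08 in the cluster at 3632255, and 5.69 and 5.31 in the cluster at 24113479, for GFP-negative replicates 1 and 2.

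The depth of the libraries bears on what absence means at these regions. The pileups of the members were scaled by the ratio of the implied tags, to ask what the GFP-positive libraries would show at the same openness. This takes all libraries to be alike in signal over background, which was not tested. GFP-positive replicate 2 had more implied tags than replicate 1 but only 190059 peaks against 336052. From GFP-negative replicate 1 the median member would have 6.46 tags in GFP-positive replicate 1 and 7.63 in GFP-positive replicate 2, where the lowest called pileups were 5 and 6. From GFP-negative replicate 2 the medians would be 7.29 and 8.62 tags. By this scaling 124 members (14.1%) taken from GFP-negative replicate 1, and 55 (6.24%) taken from replicate 2, would fall under the lowest pileup that either GFP-positive list called, against 1.87% and 0.772% of regions called in all 4 lists. In all 4 scalings 713 members (80.9%) reached that floor. A scaled pileup is only an expected value, so a member that reached the floor could still have gone uncalled. Members were also chosen as called in both GFP-negative lists, which favours high pileups there. The median member would thus stand less than 3 tags above the floor. How many members went uncalled in GFP-positive cells for lack of depth was not tested.

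The clusters were also compared with their mirror image, the clusters of GFP-positive-only regions under the same rule. Of the GFP-negative-only regions 881 (2.22%) were clustered in 143 clusters, and of the GFP-positive-only regions 67 (0.614%) in 12 clusters, the largest with 8 members. Unequal list lengths enter both counts. With the 190059 strongest peaks of each list, 93 of 14019 GFP-negative-only regions (0.663%) formed 16 clusters, and 110 of 15373 GFP-positive-only regions (0.716%) formed 19. The excess of GFP-negative clusters was therefore seen with the full lists and not with lists of equal length. Of the 881 members, 201 (22.8%) were GFP-negative-only at equal length, 148 and 196 were called in GFP-negative replicate 1 or 2 alone, and 336 (38.1%) were no longer called in any. Peaks were kept there down to a fold of 5.10 in GFP-positive replicate 1 and 3.28 in replicate 2, and down to 4.93 and 4.90 in GFP-negative replicates 1 and 2. Where the cut fell among peaks tied at such a fold, those on low-numbered chromosomes were kept. Only 53 of the 881 members lay in clusters at equal length. No mirrored cluster came within 50 kb of a cluster of the members. With only 12 mirrored clusters, and members' clusters over 0.208% of the chromosome length, this count cannot show that the groups keep apart.

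Clusters stood close to chromosome ends more often than open regions did, a pattern noticed in the lists and not set out beforehand. Ends were taken as the first and last peak of a chromosome. Within 1 Mb of an end lay 35 of the 143 clusters (24.5%), and 23.7% of the members, against 8.95% of the regions in chains of 2 to 4, 4.57% of those in chains of 1, 11.9% of those beside shared sites, 6.66% of all regions and 3.68% of the chromosome length. The rule itself favours places where GFP-negative-only regions are dense, and 8.11% of all GFP-negative-only regions lay in these zones. Within 0.5 Mb lay 23 clusters (16.1%), against 8.05% of GFP-negative-only regions beside shared sites and 3.86% of all regions, and within 5 Mb lay 66 (46.2%), against 24.6%. The 35 clusters were split between 17 near chromosome starts and 18 near far ends, and they occupied 21 of the 50 ends. Of the 12 mirrored clusters, 0 lay within 1 Mb of an end, where 5.68% of all GFP-positive-only regions lay. So few clusters cannot show whether the groups differ in this. The share for the members' clusters was 12.5% at equal list lengths (16 clusters), 15.7% and 16.5% without GFP-positive replicates 1 and 2, and 9.36% and 5.21% without GFP-negative replicates 1 and 2. It was lowest, at 5.06%, for replicate number 1 alone.

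**Figure D4:**
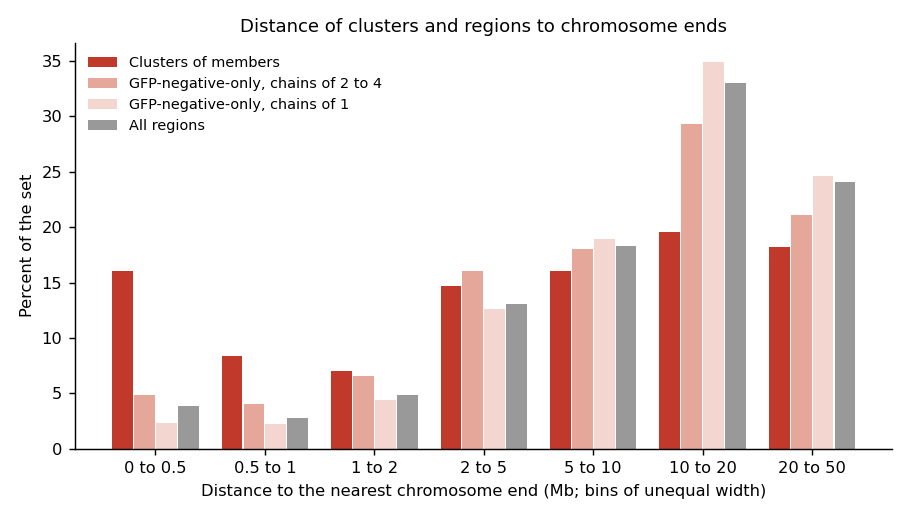
Distance to the nearest chromosome end, in bins of unequal width in Mb, for the 143 clusters, for GFP-negative-only regions in chains of 2 to 4 and in chains of 1, and for all regions, as a percent of each set. Of the clusters 16.1% lie within 0.5 Mb of an end, against 3.86% of all regions, and from 5 Mb on the share of clusters is below that of all regions in every bin.

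The clusters at chromosome ends held more regions, with the members counted. They had a median of 28 regions per span, against 18.5 in the 108 inner clusters, and 13.3 regions per 10 kb, against 11.0. Open regions of the whole series were also denser near ends, as 6.66% of them lay in the 3.68% of chromosome length within 1 Mb. GFP-positive peaks were found in 39.0% of the regions of the end clusters, against 33.7% in the inner clusters. These shares count the members, which hold none by the rule, and the same share over all clusters was 35.3%. Their 209 members were of ordinary strength, with median folds of 4.55 and 4.49 in GFP-negative replicates 1 and 2, against 4.55 and 4.90 for the 672 inner members. A member near an end was a median of 3.86 kb from a region called in all 4 lists, against 5.53 kb elsewhere.

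Chromosomes differed far more in clusters than in the regions they were made from. All 25 chromosomes had at least 1 cluster, whereas the density of members ran from 0.890 per 10 Mb on chromosome 8, with 1 cluster, to 17.1 per 10 Mb on chromosome 24, with 13 clusters. Over the same chromosomes GFP-negative-only regions varied only between 27.0 and 31.5 per Mb. Members come from few clusters per chromosome and in blocks of at least 5, so part of their wider scatter follows from the rule. Chromosome 24 held 75 members (8.51%), against 3.27% of all GFP-negative-only regions and 3.15% of all regions. Chromosomes 15 and 9 followed with 12.4 and 11.8 members per 10 Mb, in 11 clusters each. The share on chromosome 24, chosen because it was the highest, was 3.26% and 6.90% without GFP-positive replicates 1 and 2, 3.08% and 3.24% without GFP-negative replicates 1 and 2, and 0% at equal list lengths. At equal lengths, peaks tied at the lowest kept fold were kept in chromosome order, so ties on late chromosomes were the ones dropped. How much of the 0% comes from that order was not tested.

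**Figure D5:**
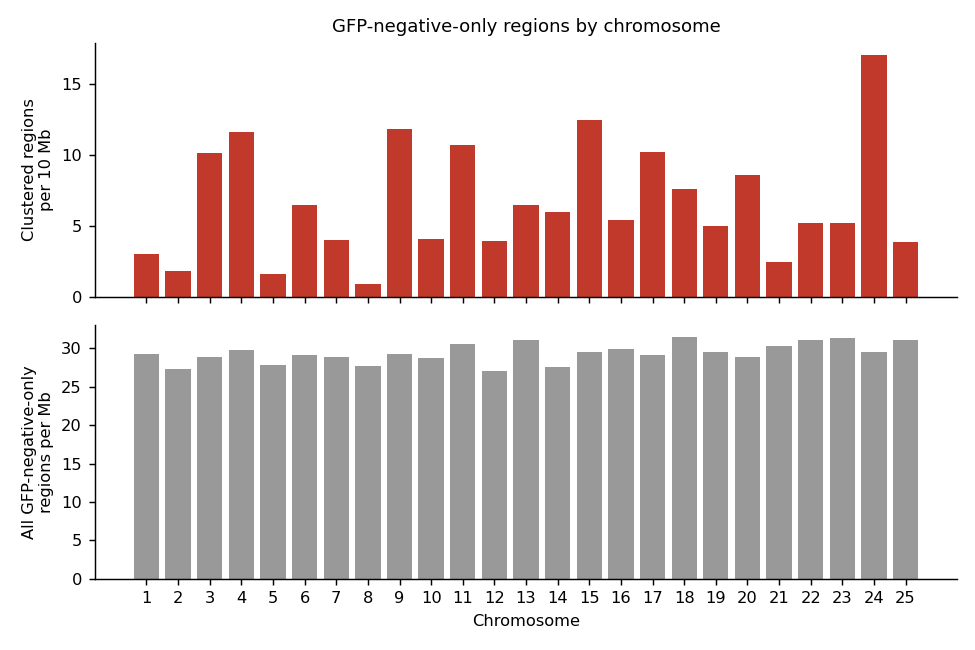
Clustered GFP-negative-only regions per 10 Mb (upper panel) and all GFP-negative-only regions per Mb (lower panel) for chromosomes 1 to 25. The lower bars are nearly level, between 27.0 and 31.5 per Mb, whereas the upper bars run from 0.890 per 10 Mb on chromosome 8 to 17.1 on chromosome 24.

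Chromosome 4, whose long arm in zebrafish is known for repeats and late replication, held 72 members in 10 clusters. Of these, 55 members in 7 clusters, among them those of 15 and 12 members, lay beyond its midpoint, which is 6.24% of the members, against 2.49% of all GFP-negative-only regions and 2.26% of all regions. That share was 3.31% and 5.63% without GFP-positive replicates 1 and 2, 2.69% and 2.41% without GFP-negative replicates 1 and 2, and 22.6% at equal list lengths, where it rests on 93 regions. Peaks tied at the lowest kept fold were kept there in chromosome order, which treats a low-numbered chromosome such as 4 unlike later ones. How much of the 22.6% comes from that order was not tested. How uniquely reads map to these stretches was not tested.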

How the data were processed

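ATAC-seq peak lists of 2 GFP-positive and 2 GFP-negative libraries were used, with groups and replicate numbers from the labels. The submitters' processing notes name Trimmomatic 0.35, Bowtie2, SAMtools, deepTools 2.0 and MACS2 2.1.1. The authors kept fragments under 100 bp and called peaks per library without pooling. The deposited value has no name and was read as a ratio, the fold enrichment the authors obtained from MACS2 over a constant background, not scaled between libraries. Each list has 1 fixed step of which its folds under 200 are whole multiples, to within 3.80e-05 steps. Depth was computed from that step, a genome size of 1400000000 and an extension of 54 bp, with 1 taken as added to pileup and background. The methods of the study give danRer7 and the labels danRer10. The cldne intervals and the chromosome ends fitted danRer7.

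Regions, classes, chains, percentiles and distances were computed from the lists with Python 3.11.15, pandas 2.3.3, numpy 2.4.6 and scipy 1.17.1, and plots were drawn with matplotlib 3.10.9. Only the merging, the 1 kb rule and the chaining were tested on simulated data. Spans run from the first to the last member. No interval for counting error can be given without reads. Named were the 5 clusters with the most members, the 3 with the most members per kb, the longest, the strongest member of each (by the lower of its percentiles), and the 3 members highest by that measure overall. Members, rules and comparisons were chosen with earlier results of these data known. Alternatives changed the gap, distance, overlap, width, list length, definition of absence, chain size and libraries. Motifs, sequences and genes were not analysed here.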

Additional observations from a re-analysis of the deposited data

How the results depend on the processing

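The number of clusters changed widely with the rule and with the peaks kept from each list. Cutting the lists to equal length also removes their weakest peaks, so list length and peak strength were not separated. For clustered regions, clusters and the largest cluster (881, 143 and 16 with the rule as given), a fixed width of 200 bp, an overlap of 50% of the shorter peak and leaving out GFP-positive replicate 2 kept all 3 counts within 1.5 times, but only 543, 514 and 515 of the 881 members were in clusters under these settings. A gap of 5 kb gave 218 regions in 34 clusters and of 20 kb 3860 in 615. No distance to shared regions gave 3101 in 470, the largest with 29, and 2 kb gave 512 in 83. Chains of at least 4 gave 2197 in 472, and of at least 8 gave 233 in 24. Equal list lengths gave 93 in 16, the largest with 9, the upper 50% of each list 298 in 49, and no GFP-positive peak within 500 bp 230 in 40. In the upper 50%, as at equal lengths, peaks tied at the lowest kept fold were kept in chromosome order, lowest number first. A pileup of at least 10 in the GFP-negative lists, chosen after seeing the data, gave 130 in 21, the largest with 10. Leaving out each library in turn gave 942 to 130012 regions, 164 to 14200 clusters and a largest cluster of 14 to 71.

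No paired test was run, as all results are descriptions. Whether equal replicate numbers mark the same batch in both groups was not established here. As a replicate block, the lists of replicate number 1 alone gave 109666 regions in 13104 clusters (largest 54) and those of number 2 alone 74403 in 9524 (largest 62), since each group then rests on 1 list. A region that is GFP-negative-only is so within each numbered pair by definition.

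The median percentile of the members' peaks was 21.9 and 26.4 in GFP-negative replicates 1 and 2 when ranked among regions called in both GFP-negative lists, and was unchanged with the mean of a member's peaks. The median width was 98 and 80 bp by the peaks of either list alone. Which genes or cell types the regions belong to, and how reads map there, were not tested.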
